A study of Homo sapiens with 12 samples.

Results

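The set described is 39 interferon-stimulated genes, and a gene was measured through every probe that the platform's gene table assigns to its symbol. The table listed 38 of the 39, with 63 probes, and did not list STAT2. Of these 38 genes, 25 had a probe detected on at least 1 of the 12 arrays and were tested, out of 12093 genes tested in all. The arrays measured transcripts of SK-N-SH, a human neuroblastoma cell line, in 4 groups of 3 arrays. DoxR-v cells were selected for survival in stepwise higher doxorubicin, a topoisomerase poison, and were given the histone deacetylase inhibitor vorinostat (SAHA) intermittently during the selection. DoxR cells were selected with doxorubicin alone, WT-v cells were parental cells given vorinostat alone on the same schedule, and WT cells were the untreated parent. As each group is 1 line, drug and line cannot be told apart. No source used here states whether the 3 replicates of a group came from separate cultures, and every p-value therefore measures only the spread between these samples, which may be technical.

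Interferons are secreted proteins that cells release on sensing viral or other foreign nucleic acid. They bind surface receptors, and the receptors' kinases activate transcription factors that enter the nucleus and bind short DNA elements at interferon-stimulated genes. The products of these genes block viral entry, recognise or degrade RNA, slow translation, tag proteins and raise antigen processing, and many also respond to DNA damage and to changes in chromatin. Vorinostat raises histone acetylation, and doxorubicin breaks DNA.

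Between 14969 and 17220 probes were detected per array, at a detection p-value below 0.01, and normalized levels of arrays correlated at r of 0.982 to 0.992 within groups and 0.936 to 0.971 between groups. All levels are log2 intensities after background correction and quantile normalization, and the lowest level of a detected probe was 5.13 to 5.55 depending on the array. Measured neuroblastoma markers were detected on every array of a group for 11 of 11 genes in DoxR-v, WT-v and WT cells and for 10 of 11 in DoxR cells, where TH, the enzyme that starts catecholamine synthesis, was not detected.

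Of the 38 members with a probe 25 were detected on at least 1 array, as were 12093 of all 20046 genes with a probe. On all 3 arrays of a group, 12 members were detected in DoxR-v, 11 in DoxR, 9 in WT-v and 13 in WT cells, and 7 members were detected on all 12 arrays, namely IFI6, IFIT5, OAS3, IRF3, IRF9, XAF1 and EIF2AK2. A further 13 members with a probe were detected on no array. These were the RNA-binding IFIT3, the membrane protein IFITM1, the RNA sensor IFIH1, the oligoadenylate synthetase OAS2 and its relative OASL, the dynamin-like GTPases MX1 and MX2, the radical SAM enzyme RSAD2, the ISG15 protease USP18, the nuclear body protein SP100, the ubiquitin ligases TRIM22 and DTX3L, and the nucleotide hydrolase SAMHD1. For them these arrays give only an upper limit, the detection floor.

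A gene was counted as higher or lower at an adjusted p below 0.1 together with a fold above 1.5, the thresholds of the study. DoxR cells had 4 members higher and 6 lower than WT cells, where 17.1% of all genes tested were higher and 16% lower, and the median difference over the 25 members was -0.42 (log2). DoxR-v cells had 4 higher and 7 lower than WT cells, beside 12.6% higher and 11.8% lower among all genes, with a member median of -0.24. WT-v cells had 0 higher and 11 lower than WT cells, beside 14% and 12.3% of all genes, with a median of -0.36; at an unadjusted p below 0.05, 2 members were higher and 12 lower. These 3 comparisons use the same WT arrays, so their counts are not independent of each other. All 32 of these calls were between groups whose arrays did not overlap. The share of such calls over all genes was not counted, so this does not set the members apart from other genes. In a bulk sample, fewer expressing cells and less RNA per cell cannot be told apart.

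Between the derived lines, DoxR-v cells had 3 members higher and 1 lower than DoxR cells, where 14.3% of all genes were higher and 13.9% lower, with a member median of 0.04. Against WT-v cells, DoxR-v cells had 9 members higher and 3 lower, beside 11.9% and 12.3% of all genes, with a member median of 0.33. When arrays were scaled to a common median in place of quantile normalization, the median difference over all probes became 0.13 in DoxR, 0.26 in DoxR-v and 0.24 in WT-v cells against WT, and 0.10 in DoxR-v against DoxR cells. The member split became 5 higher and 6 lower in DoxR, 8 and 5 in DoxR-v, and 3 and 7 in WT-v cells against WT, and 5 and 0 in DoxR-v against DoxR cells. Among all probes past both thresholds at that setting, 73.1%, 87.2%, 84.8% and 65.8% were higher, in the same order.

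**Figure D1:**
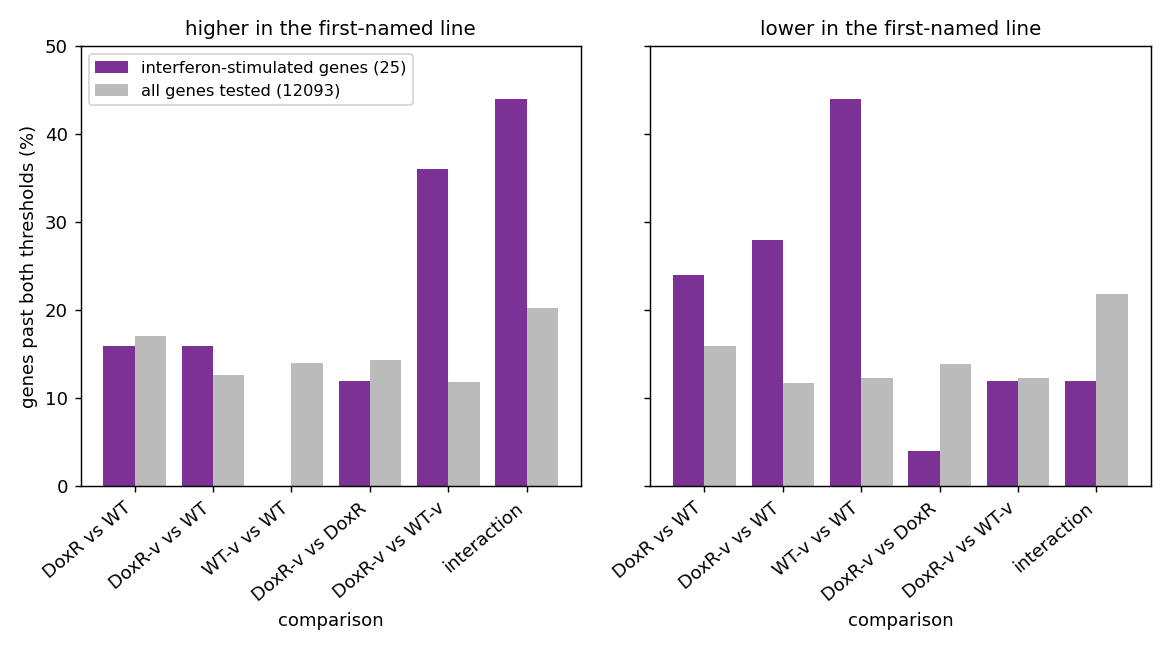
Share of genes past both thresholds (%), for the 25 measured interferon-stimulated genes and all 12093 genes tested, higher (left) or lower (right) in the first-named line of each comparison. For the interaction, higher means that DoxR-v minus DoxR, with its sign, exceeded WT-v minus WT. It does not mean a difference of greater size among resistant cells. The members' largest shares were 44% lower in WT-v vs WT and 44% higher in the interaction, and both use the WT-v and WT arrays.

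**Figure D2:**
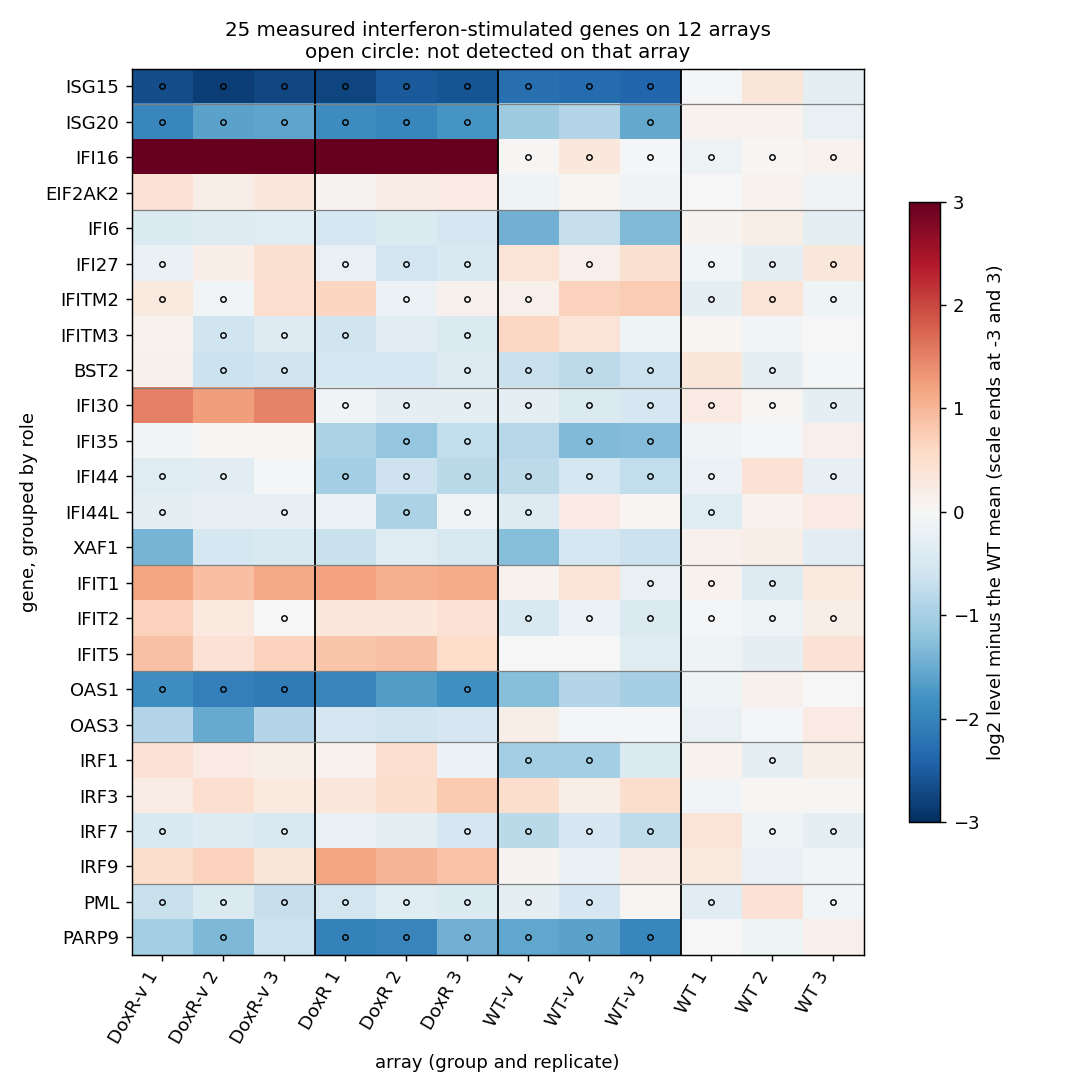
Level of each measured member on each of the 12 arrays minus the WT mean of that member (log2, colour), with genes grouped by role and open circles where the probe was not detected on that array. ISG15, ISG20, OAS1 and PARP9 are blue in all 9 arrays of the derived lines, and IFI16 is red in the 6 arrays of DoxR-v and DoxR cells, beyond the end of the colour scale.

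The ubiquitin-like modifier ISG15, which is joined to target proteins and is also secreted, was lower in each derived line than in WT cells. ISG15 had levels of 4.6, 4.43 and 4.52 in DoxR-v cells, 4.50, 4.74 and 4.67 in DoxR cells, 4.99, 4.93 and 4.88 in WT-v cells, and 7.18, 7.61 and 6.95 in WT cells. It was detected on all 3 WT arrays and on none of the other 9, so only a lower bound on each fold can be given. That bound sets the mean of the brighter group against the dimmer group's mean of, on each array, the higher of the probe's level and the lowest level of any detected probe. ISG15 was lower by at least 3.86-fold in DoxR-v cells (log2 -2.73, SE 0.16, adjusted p = 5.05e-08), at least 3.91-fold in DoxR (log2 -2.61, adjusted p = 3.66e-08) and at least 4.08-fold in WT-v cells (log2 -2.32, adjusted p = 2.88e-07), each against WT. Of the 4 further genes of ISG15 conjugation, the ligases HERC5 and TRIM25 and the conjugating enzyme UBE2L6 were tested. Of these, 0 passed both thresholds in any comparison, beside 24.2% to 42.1% of all genes depending on the comparison. At an unadjusted p below 0.05, 1 of them was higher in WT-v vs WT and 1 in DoxR-v vs DoxR.

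The interferon-stimulated response element is the DNA site of the interferon-activated factors, and its core was taken as 2 copies of GAAA with 2 bases between them. Windows of 300 bases, from 250 before to 50 after a RefSeq start site (GRCh38.p14), were given for 29 of the 39 members, and 9 of these had more than 1 window. The core was found on either strand in a window of 19 of the 29 members (65.5%), against 4.38% of the 27305 genes of the table and 3.57% of its 35116 windows; overlapping matches were counted separately. The gamma-activated site TTCNNNGAA, which reads the same on both strands, was found for 8 of the 29 (27.6%), against 9.38% of all genes. Among members with a window the response element core was found for 2 of 4 higher in DoxR, 4 of 6 lower in DoxR and 7 of 10 not called there, and for 6 of 10 lower and 7 of 10 not called in WT-v cells, each against WT. A match is a stretch of letters, copies of GAAA at other spacings were not searched, and binding was not measured.

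The windows of the 4 members that were lower in all 3 derived lines are shown first, read 5′ to 3′ on the gene's strand, with matches to either motif in capitals. They lie at chr1:1013247-1013546 (plus strand, ISG15), chr15:88638766-88639065 (plus strand, ISG20), chr12:112906712-112907011 (plus strand, OAS1) and chr3:122564251-122564550 (minus strand, PARP9). PARP9 has another window, at chr3:122564735-122565034, which holds neither motif and is not printed. In ISG15 there are 2 overlapping response element cores, and ISG20 and PARP9 hold 1 each. OAS1 holds a gamma-activated site and no core as defined here. Its window does hold 2 copies of GAAA with 1 base between them (gaaacgaaa), a spacing that was not searched. A response element in OAS1 is therefore not excluded.
ISG15: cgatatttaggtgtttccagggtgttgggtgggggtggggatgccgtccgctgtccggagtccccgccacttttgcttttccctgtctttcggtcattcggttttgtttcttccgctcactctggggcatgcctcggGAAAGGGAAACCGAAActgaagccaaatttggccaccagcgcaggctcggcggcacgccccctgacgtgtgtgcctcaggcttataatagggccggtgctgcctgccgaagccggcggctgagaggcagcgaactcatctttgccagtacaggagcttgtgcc
ISG20: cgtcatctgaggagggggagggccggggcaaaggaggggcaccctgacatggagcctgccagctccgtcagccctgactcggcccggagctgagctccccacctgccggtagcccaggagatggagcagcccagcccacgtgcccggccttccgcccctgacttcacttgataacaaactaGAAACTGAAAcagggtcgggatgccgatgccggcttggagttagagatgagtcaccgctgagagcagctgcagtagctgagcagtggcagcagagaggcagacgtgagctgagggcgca
OAS1: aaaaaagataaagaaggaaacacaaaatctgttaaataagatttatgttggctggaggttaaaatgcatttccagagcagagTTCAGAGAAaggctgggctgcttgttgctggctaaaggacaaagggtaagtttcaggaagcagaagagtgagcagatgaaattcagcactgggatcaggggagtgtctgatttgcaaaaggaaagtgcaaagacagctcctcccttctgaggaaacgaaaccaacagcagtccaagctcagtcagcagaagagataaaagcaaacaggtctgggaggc
PARP9: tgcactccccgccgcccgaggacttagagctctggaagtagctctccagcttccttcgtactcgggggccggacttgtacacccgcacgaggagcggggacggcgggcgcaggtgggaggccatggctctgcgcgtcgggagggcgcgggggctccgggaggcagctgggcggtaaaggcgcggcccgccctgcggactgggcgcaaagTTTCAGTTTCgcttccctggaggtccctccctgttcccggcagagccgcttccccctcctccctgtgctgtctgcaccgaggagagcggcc

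OAS1 and OAS3, which make the short oligoadenylates that switch on RNase L, are neighbours on chromosome 12 with OAS2, which was not detected. OAS1 had levels of 5.25, 5.06 and 4.98 in DoxR-v cells, 5.14, 5.43 and 5.28 in DoxR cells, 5.82, 6.22 and 6.12 in WT-v cells, and 6.97, 7.23 and 7.12 in WT cells. The WT arrays stood above all others, WT-v arrays came next, and the arrays of both resistant lines overlapped at the bottom. OAS1 was detected on 2 DoxR arrays and on no DoxR-v array. Against WT, OAS1 was lower by at least 3.51-fold in DoxR-v cells (log2 -2.01, SE 0.14, adjusted p = 4.43e-07), 3.55-fold in DoxR (log2 -1.83, adjusted p = 5.39e-07) and 2.08-fold in WT-v cells (log2 -1.05, adjusted p = 0.000144). It was also lower in DoxR-v than in WT-v cells, by at least 1.69-fold (log2 -0.96, adjusted p = 0.00027). The other 2 tested OAS1 probes were likewise lower in DoxR-v and DoxR cells, but in WT-v cells their differences of -0.54 and -0.32 missed the fold threshold.

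Its neighbour OAS3 followed another order. OAS3 had levels of 7.30, 6.66 and 7.29 in DoxR-v cells, 7.67, 7.57 and 7.67 in DoxR cells, 8.36, 8.14 and 8.13 in WT-v cells, and 7.96, 8.14 and 8.43 in WT cells. WT-v and WT arrays overlapped, and all DoxR-v arrays lay below them. OAS3 was lower in DoxR-v than in WT cells by 2.1-fold (log2 -1.09, SE 0.18, adjusted p = 0.000515) and than in WT-v cells by 2.18-fold (log2 -1.13, adjusted p = 0.000394). In DoxR cells its difference from WT, -0.54, did not reach 1.5-fold, although without WT replicate 1 it did (-0.65). Likewise the difference of DoxR-v from DoxR cells, -0.55, passed both thresholds without DoxR replicate 2 (-0.59), DoxR-v replicate 1 (-0.66) or DoxR-v replicate 3 (-0.66).

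Among effectors and sensors of nucleic acid, ISG20, an RNA exonuclease, fell with ISG15. ISG20 had levels of 4.83, 5.18 and 5.22 in DoxR-v cells, 4.90, 4.83 and 5.01 in DoxR cells, 5.72, 5.91 and 5.26 in WT-v cells, and 6.89, 6.91 and 6.57 in WT cells. It was detected on no array of either resistant line and on 2 of the 3 WT-v arrays. Against WT it was lower by at least 2.81-fold in DoxR-v cells (log2 -1.71, SE 0.18, adjusted p = 1.19e-05), at least 2.85-fold in DoxR (log2 -1.88, adjusted p = 2.81e-06) and 2.24-fold in WT-v cells (log2 -1.16, adjusted p = 0.000304). DoxR-v arrays also lay below WT-v arrays, with a difference of -0.55 that passed the fold threshold only without DoxR-v replicate 2 (-0.60), DoxR-v replicate 3 (-0.62) or WT-v replicate 3 (-0.74).

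IFI16, a sensor of DNA in the nucleus and cytosol, was higher in both resistant lines. IFI16 had levels of 9.33, 8.39 and 8.51 in DoxR-v cells, 9.38, 9.40 and 9.31 in DoxR cells, 4.90, 5.19 and 4.83 in WT-v cells, and 4.72, 4.88 and 4.98 in WT cells. All 6 arrays of the resistant lines detected it and none of the 6 parental ones did. It was higher than in WT by at least 10.1-fold in DoxR-v cells (log2 3.89, SE 0.21, adjusted p = 2.71e-08) and at least 15.5-fold in DoxR cells (log2 4.51, adjusted p = 3.17e-09), and at least 11.5-fold higher in DoxR-v than in WT-v cells (log2 3.77, adjusted p = 3.87e-08). DoxR-v cells had 1.54-fold less IFI16 than DoxR cells (log2 -0.62, adjusted p = 0.0333), but the arrays overlapped and the call was lost without DoxR-v replicate 2 (-0.44) or DoxR-v replicate 3 (-0.50). EIF2AK2, a kinase that stops translation on binding double-stranded RNA, ran from 9.03 to 9.60 over the 12 arrays and passed both thresholds in no comparison.

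The IFIT proteins bind foreign RNA through tetratricopeptide repeats, and their genes lie together on chromosome 10. IFIT1 had levels of 6.31, 6.05 and 6.27 in DoxR-v cells, 6.33, 6.20 and 6.25 in DoxR cells, 5.23, 5.54 and 4.91 in WT-v cells, and 5.23, 4.75 and 5.42 in WT cells. The resistant lines lay wholly above the parental ones, and IFIT1 was higher than in WT by 2.11-fold in DoxR-v cells (log2 1.08, SE 0.19, adjusted p = 0.000852) and 2.18-fold in DoxR cells (log2 1.13, adjusted p = 0.000362). DoxR-v cells also exceeded WT-v cells by 1.98-fold (log2 0.98, adjusted p = 0.00157). IFIT1 was detected on 1 WT and 2 WT-v arrays, so these folds rest partly on undetected levels. IFIT5, next to IFIT1, had levels of 7.14, 6.70 and 6.96 in DoxR-v cells, 7.10, 7.14 and 6.82 in DoxR cells, 6.25, 6.25 and 5.90 in WT-v cells, and 6.10, 6.00 and 6.68 in WT cells. Again the resistant lines lay above the parental ones, with WT replicate 3 the nearest. IFIT5 was higher than in WT by 1.60-fold in DoxR-v cells (log2 0.67, SE 0.19, adjusted p = 0.0173) and 1.69-fold in DoxR cells (log2 0.76, adjusted p = 0.00648), and by 1.74-fold in DoxR-v over WT-v cells (log2 0.80, adjusted p = 0.00656). The call in DoxR-v against WT was lost without DoxR-v replicate 1 (0.57) or WT replicate 2 (0.54).

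IFIT2, which acts with the other IFIT proteins, had levels of 5.88, 5.49 and 5.21 in DoxR-v cells, 5.51, 5.50 and 5.64 in DoxR cells, 4.73, 5.01 and 4.77 in WT-v cells, and 5.17, 5.04 and 5.38 in WT cells. It was not detected on any parental array, and the only call was DoxR-v over WT-v cells, at least 1.24-fold (log2 0.69, SE 0.17, adjusted p = 0.007), which was lost without DoxR-v replicate 1 (0.51). Thus IFIT1 and IFIT5 were higher in both resistant lines and not called in WT-v cells, as was IFI16. Without background correction the differences of IFIT1 and IFIT5 from WT were 0.44 and 0.37 in DoxR-v and 0.47 and 0.43 in DoxR cells, and on the authors' normalized values 0.22 and 0.22 in DoxR-v and 0.24 and 0.25 in DoxR cells, so neither gene passed the fold threshold at these settings, whereas IFI16 did. Of all genes tested, 2.52% had that pattern, against 3.33% that were lower in all 3 derived lines.

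The windows of the 3 members that were higher in both resistant lines lie at chr10:89392373-89392672 (plus strand, IFIT1), chr10:89414318-89414617 (plus strand, IFIT5) and chr1:159008741-159009040 (plus strand, IFI16), and are shown to set them beside those of the members that were lower. The response element core, in capitals, occurs 2 times in IFIT1 and 3 times in IFIT5. Neither of the 2 windows of IFI16 held either motif, and the one with the lower coordinates is printed. The other window, at chr1:159009657-159009956, holds 2 copies of GAAA with 1 base between them (gaaacgaaa), as the OAS1 window does. That spacing was not searched, so a response element in IFI16 is not excluded.
IFIT1: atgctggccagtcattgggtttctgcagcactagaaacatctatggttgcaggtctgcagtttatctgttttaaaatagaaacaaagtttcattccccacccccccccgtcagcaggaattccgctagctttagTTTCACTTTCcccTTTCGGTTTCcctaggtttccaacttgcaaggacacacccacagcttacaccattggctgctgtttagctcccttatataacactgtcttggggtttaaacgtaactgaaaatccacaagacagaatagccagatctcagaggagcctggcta
IFIT5: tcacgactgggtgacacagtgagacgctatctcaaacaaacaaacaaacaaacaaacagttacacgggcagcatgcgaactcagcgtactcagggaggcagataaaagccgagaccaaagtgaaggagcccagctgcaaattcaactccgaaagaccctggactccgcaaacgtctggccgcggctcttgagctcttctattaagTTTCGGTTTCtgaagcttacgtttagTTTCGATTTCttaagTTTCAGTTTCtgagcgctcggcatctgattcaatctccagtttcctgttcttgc
IFI16: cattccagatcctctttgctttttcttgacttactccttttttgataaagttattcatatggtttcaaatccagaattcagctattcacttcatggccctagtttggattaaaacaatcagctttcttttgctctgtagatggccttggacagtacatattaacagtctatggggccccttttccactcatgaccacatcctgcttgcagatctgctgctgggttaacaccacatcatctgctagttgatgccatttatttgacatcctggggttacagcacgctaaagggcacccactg

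**Figure D3:**
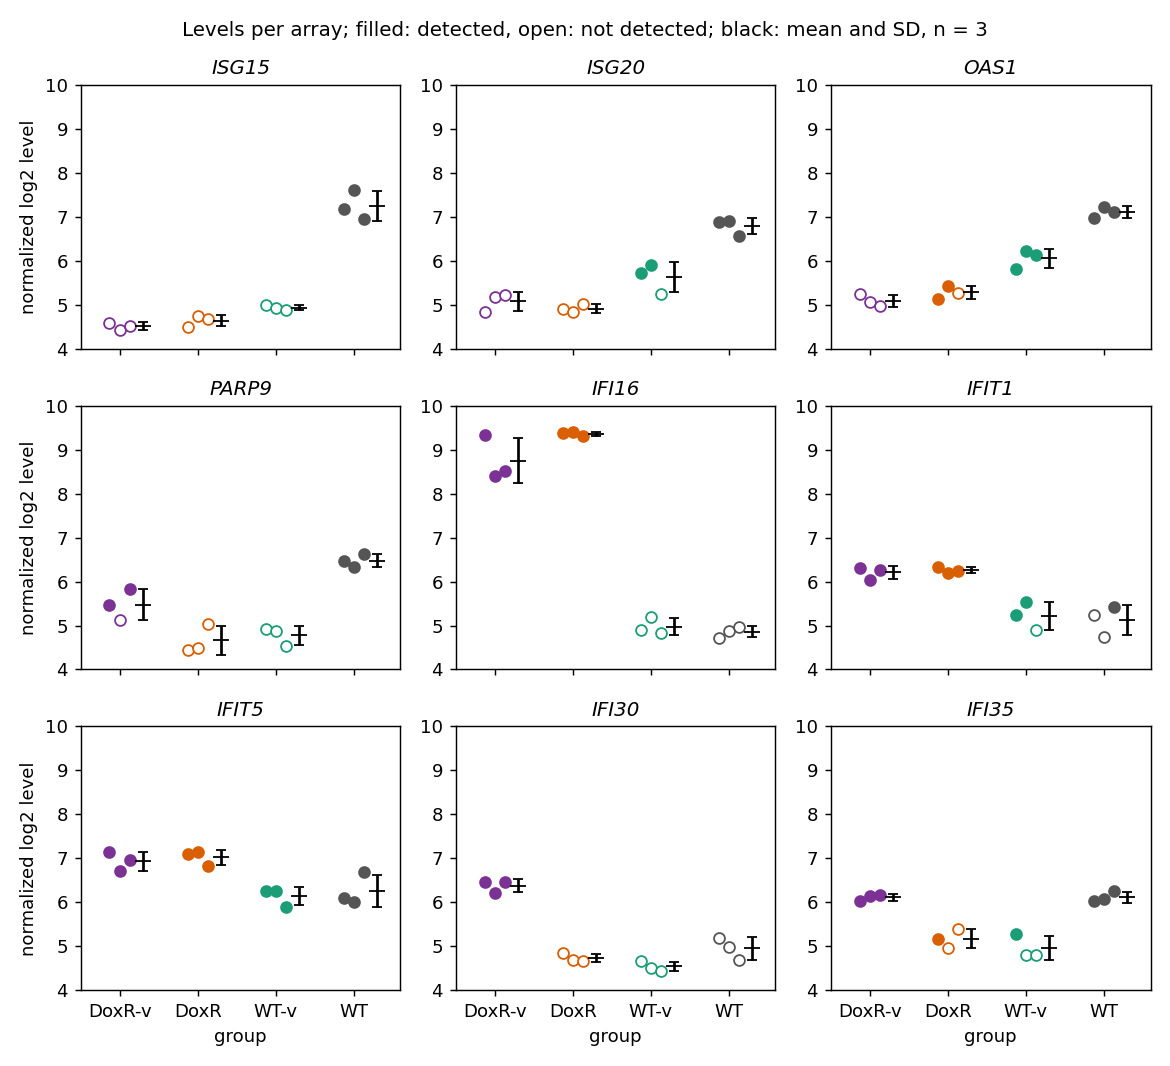
Normalized log2 level of 9 members on each array, by group, with filled points where the probe was detected, open points where it was not, and the mean with its SD (n = 3) in black. ISG15, ISG20, OAS1 and PARP9 are highest in WT cells, IFI16, IFIT1 and IFIT5 are high in DoxR-v and DoxR cells, and IFI30 is detected only in DoxR-v cells.

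Of the membrane proteins, IFI6, a small hydrophobic protein of mitochondria and the endoplasmic reticulum, was detected on all 12 arrays. Its levels were 9.22, 9.25 and 9.27 in DoxR-v cells, 9.12, 9.24 and 9.13 in DoxR cells, 8.21, 8.95 and 8.31 in WT-v cells, and 9.73, 9.82 and 9.37 in WT cells. IFI6 was lower in WT-v than in WT cells by 2.22-fold (log2 -1.15, SE 0.18, adjusted p = 0.000415) and 1.69-fold higher in DoxR-v than in WT-v cells (log2 0.76, adjusted p = 0.00675), a call that did not hold when its 2 tested probes were averaged (0.58). DoxR arrays lay below WT arrays, with a difference of -0.48 that passed the fold threshold only without WT replicate 3 (-0.61). BST2, which tethers virus particles to the cell surface, had levels of 5.93, 5.16 and 5.20 in DoxR-v cells, 5.27, 5.27 and 5.40 in DoxR cells, 5.13, 5.02 and 5.14 in WT-v cells, and 6.15, 5.49 and 5.74 in WT cells. It was detected on no WT-v array and was lower there than in WT cells by at least 1.49-fold (log2 -0.70, SE 0.20, adjusted p = 0.0186), a call that was lost without WT replicate 1 (-0.52). Without WT replicate 2 BST2 was also lower in DoxR cells (-0.63), and without DoxR-v replicate 1 in DoxR-v cells (-0.61), against WT.

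IFITM3, which blocks the fusion of enveloped viruses, had levels of 5.74, 5.04 and 5.26 in DoxR-v cells, 5.05, 5.32 and 5.20 in DoxR cells, 6.27, 6.02 and 5.52 in WT-v cells, and 5.71, 5.55 and 5.66 in WT cells. DoxR-v was 1.51-fold lower than WT-v cells (log2 -0.59, SE 0.20, adjusted p = 0.0406) with overlapping arrays, and the call was lost without DoxR-v replicate 2 (-0.44), DoxR-v replicate 3 (-0.55), WT-v replicate 1 (-0.43) or WT-v replicate 2 (-0.55). In DoxR-v cells IFITM3 was detected on 1 array only. The neighbouring genes IFITM1, IFITM2 and IFITM3 are near-identical copies, and how well their probes separate them was not tested. IFITM2 and the mitochondrial protein IFI27 were each detected on 4 of the 12 arrays, at levels of 4.72 to 5.75 and 4.45 to 5.47, and were called in no comparison. With 1 array left out at a time, IFITM2 passed in WT-v against WT cells without WT replicate 2 (0.73) or WT-v replicate 1 (0.72), and IFI27 in DoxR-v against DoxR cells without DoxR replicate 1 (0.66) or DoxR-v replicate 1 (0.75).

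Of the 4 transcription factors tested, IRF9, the DNA-binding subunit of the factor that type I interferon activates, had levels of 7.68, 7.83 and 7.51 in DoxR-v cells, 8.34, 8.15 and 8.0 in DoxR cells, 7.22, 6.94 and 7.37 in WT-v cells, and 7.44, 6.94 and 7.05 in WT cells. Parental arrays overlapped, DoxR-v arrays lay above them and DoxR arrays above those. IRF9 was higher in DoxR than in WT cells by 2.03-fold (log2 1.02, SE 0.17, adjusted p = 0.000315). In DoxR-v cells the difference from WT, 0.53, stayed below 1.5-fold but passed without DoxR-v replicate 3 (0.61) or WT replicate 1 (0.68), and that from WT-v, 0.50, passed without WT-v replicate 3 (0.60). IRF1, an activator of many interferon-induced promoters, had levels of 6.17, 6.00 and 5.94 in DoxR-v cells, 5.86, 6.22 and 5.56 in DoxR cells, 4.72, 4.73 and 5.33 in WT-v cells, and 5.86, 5.47 and 5.92 in WT cells. WT-v arrays lay below all others. IRF1 was lower in WT-v than in WT cells by 1.77-fold (log2 -0.82, SE 0.20, adjusted p = 0.00734), and 2.16-fold higher in DoxR-v than in WT-v cells (log2 1.11, adjusted p = 0.00116). It was detected on 1 WT-v and 2 WT arrays, so both folds rest partly on undetected levels.

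IRF7, which amplifies interferon production, had levels of 5.20, 5.27 and 5.17 in DoxR-v cells, 5.45, 5.36 and 5.14 in DoxR cells, 4.85, 5.15 and 4.90 in WT-v cells, and 6.06, 5.54 and 5.39 in WT cells. All were near the detection floor and no WT-v array detected it. IRF7 was lower in WT-v than in WT cells (log2 -0.69, SE 0.17, adjusted p = 0.00653), and the call was lost without WT replicate 1 (-0.50). It was detected on 1 WT array only, so the 1.36-fold found against the detection floor is not a firm lower bound. IRF3, the factor that nucleic acid sensors activate first, was detected on all 12 arrays at 6.84 to 7.71 and was called in no comparison between lines; its largest difference from WT was 0.55 in DoxR cells (adjusted p = 0.00896), and without DoxR replicate 1 this passed 1.5-fold (0.65).

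PARP9, an ADP-ribosyltransferase family member that works in a complex with DTX3L, was lower in all 3 derived lines. PARP9 had levels of 5.47, 5.12 and 5.82 in DoxR-v cells, 4.45, 4.49 and 5.04 in DoxR cells, 4.92, 4.88 and 4.52 in WT-v cells, and 6.46, 6.33 and 6.63 in WT cells. WT arrays were the highest, DoxR-v arrays lay between, and DoxR and WT-v arrays overlapped below the detection floor. Against WT it was lower by 2.00-fold in DoxR-v cells (log2 -1.0, SE 0.20, adjusted p = 0.00226), at least 2.29-fold in DoxR (log2 -1.81, adjusted p = 1.27e-05) and at least 2.39-fold in WT-v cells (log2 -1.70, adjusted p = 4.97e-05). DoxR-v cells exceeded DoxR cells by at least 1.14-fold (log2 0.81, adjusted p = 0.00682) and WT-v cells by at least 1.19-fold (log2 0.70, adjusted p = 0.0187). The last call was lost without DoxR-v replicate 3 (0.52) or WT-v replicate 3 (0.57), and neither of these 2 calls was made by the other tested PARP9 probe (-0.12 and 0.26), which was also lower than WT in all 3 lines. DTX3L, whose promoter window overlaps that of PARP9 on the opposite strand, was not detected.

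PML, the scaffold of nuclear bodies, was detected on 1 WT array and 1 WT-v array. Its levels were 4.59, 4.83 and 4.55 in DoxR-v cells, 4.70, 4.90 and 4.86 in DoxR cells, 4.97, 4.74 and 5.31 in WT-v cells, and 4.91, 5.70 and 5.16 in WT cells. PML was called lower in DoxR-v than in WT cells (log2 -0.60, SE 0.20, adjusted p = 0.0345), but the WT mean itself lay under the detection floor, so no fold is given. The call was lost without DoxR-v replicate 1 (-0.56), DoxR-v replicate 3 (-0.54) or WT replicate 2 (-0.38), and the second tested PML probe was not called. Without WT replicate 1, PML also passed in DoxR against WT cells (-0.61).

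IFI30, a lysosomal thiol reductase that unfolds antigens for presentation, was detected only in DoxR-v cells. IFI30 had levels of 6.47, 6.21 and 6.45 in DoxR-v cells, 4.85, 4.68 and 4.67 in DoxR cells, 4.66, 4.51 and 4.45 in WT-v cells, and 5.20, 4.99 and 4.68 in WT cells. It was higher in DoxR-v cells by at least 1.95-fold over WT (log2 1.42, SE 0.15, adjusted p = 1.3e-05), at least 2.14-fold over DoxR (log2 1.64, adjusted p = 2.05e-06) and at least 2.23-fold over WT-v cells (log2 1.84, adjusted p = 1.34e-06). No call of IFI30 was lost on leaving out any 1 array.

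IFI35, a leucine-zipper protein that is also released as an alarm signal, separated the lines in pairs. IFI35 had levels of 6.03, 6.15 and 6.17 in DoxR-v cells, 5.17, 4.97 and 5.38 in DoxR cells, 5.27, 4.80 and 4.81 in WT-v cells, and 6.02, 6.07 and 6.26 in WT cells. DoxR-v arrays overlapped WT arrays, with a difference of -0.00089 (SE 0.16), while DoxR and WT-v arrays lay below both. IFI35 was detected on 1 DoxR and 1 WT-v array, so its folds rest partly on undetected levels. It was lower than in WT by 1.93-fold in DoxR (log2 -0.95, SE 0.16, adjusted p = 0.00034) and 2.23-fold in WT-v cells (log2 -1.16, adjusted p = 0.000133). It was higher in DoxR-v than in DoxR cells by 1.92-fold (log2 0.94, adjusted p = 0.000399) and than in WT-v cells by 2.23-fold (log2 1.16, adjusted p = 0.000123).

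IFI44, a cytosolic protein that slows proliferation, had levels of 5.11, 5.14 and 5.42 in DoxR-v cells, 4.45, 4.84 and 4.65 in DoxR cells, 4.67, 4.94 and 4.72 in WT-v cells, and 5.28, 5.90 and 5.21 in WT cells. It was detected on 1 DoxR-v and 1 WT array only. IFI44 was lower than in WT in DoxR (log2 -0.82, SE 0.18, adjusted p = 0.00304) and in WT-v cells (log2 -0.69, adjusted p = 0.0114), the WT-v call being lost without WT replicate 2 (-0.47). As only 1 WT array detected it, the 1.13-fold and 1.18-fold found against the detection floor are not firm lower bounds. DoxR-v arrays lay above DoxR arrays by 0.58, just short of 1.5-fold, and passed without DoxR replicate 2 (0.68), DoxR-v replicate 1 (0.64) or DoxR-v replicate 2 (0.62). Its neighbour IFI44L ran from 4.51 to 5.71 and was called in no comparison.

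XAF1, which counters the caspase inhibitor XIAP, had levels of 6.16, 7.02 and 7.08 in DoxR-v cells, 6.88, 7.19 and 7.07 in DoxR cells, 6.27, 7.01 and 6.91 in WT-v cells, and 7.68, 7.75 and 7.20 in WT cells. Every WT array exceeded every array of the derived lines, though WT replicate 3 did so narrowly. XAF1 was lower than in WT by 1.73-fold in DoxR-v cells (log2 -0.79, SE 0.26, adjusted p = 0.0318) and 1.76-fold in WT-v cells (log2 -0.81, adjusted p = 0.0259). The DoxR-v call was lost without DoxR-v replicate 1 (-0.49) or WT replicate 2 (-0.69, adjusted p = 0.103), and the WT-v call without WT-v replicate 1 (-0.58). Without WT replicate 3, XAF1 also passed in DoxR against WT cells (-0.67).

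**Figure D4:**
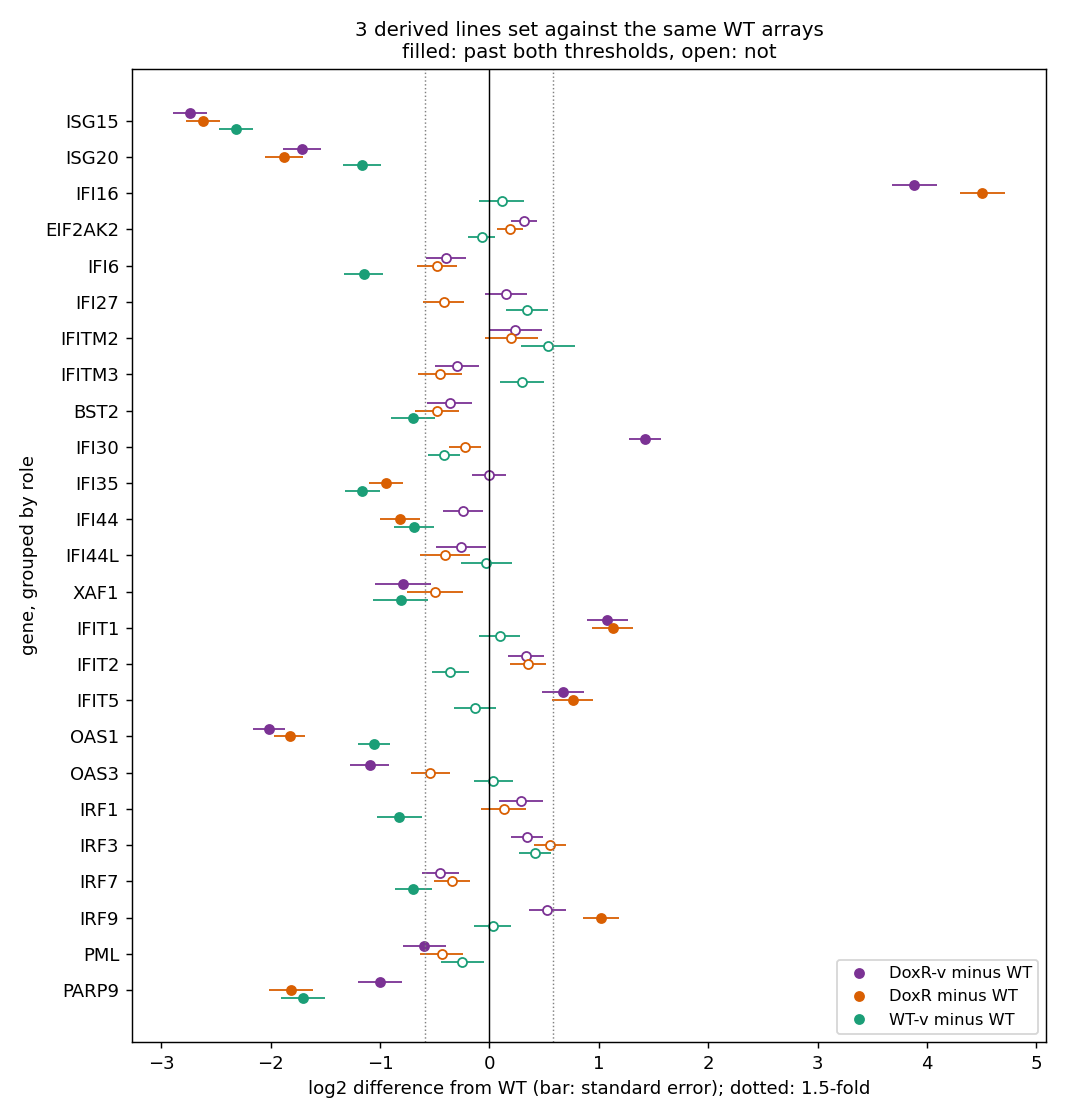
Log2 difference of DoxR-v, DoxR and WT-v cells from the same 3 WT arrays for each measured member, with its standard error; filled points passed both thresholds and dotted lines mark 1.5-fold. ISG15, ISG20, OAS1 and PARP9 lie left of the line in all 3 derived lines, and IFI16 lies at 3.89 in DoxR-v and 4.51 in DoxR cells.

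Vorinostat exposure was set against no exposure in both backgrounds, and the interaction is the log2 difference of DoxR-v from DoxR cells minus that of WT-v from WT cells. These differences share no arrays. The interaction passed both thresholds for 11 members in the positive direction and 3 in the negative, beside 20.2% and 21.9% of all genes. For PARP9 it was 2.51 (SE 0.28, adjusted p = 2.15e-05), with a difference of 0.81 among resistant lines and -1.70 among parental lines. For ISG15, at 2.20, the same differences were -0.12 and -2.32, and none of the resistant arrays detected it. For IFI35 they were 0.94 and -1.16, and for IFI30 1.64 and -0.42. Of the 11 members that were lower in WT-v than in WT cells, XAF1 was the only one without an interaction call (0.52, adjusted p = 0.285), and the call for XAF1 was made without DoxR-v replicate 1 (0.82). The interaction contains the WT-v difference with its sign reversed, so members lower in WT-v cells lean to a positive interaction in advance. That count is therefore not a separate result. For ISG15, ISG20, IFI6, OAS1, IRF1, IRF7 and BST2 the difference among resistant lines was -0.19 to 0.16. IFI6 and IRF1 were detected on every array of the resistant lines. ISG20 was detected on none of them, OAS1 on no DoxR-v array, and IRF7 and BST2 on 1 DoxR-v and 2 DoxR arrays. For these genes, as for ISG15, that difference rests in whole or in part on undetected levels.

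**Figure D5:**
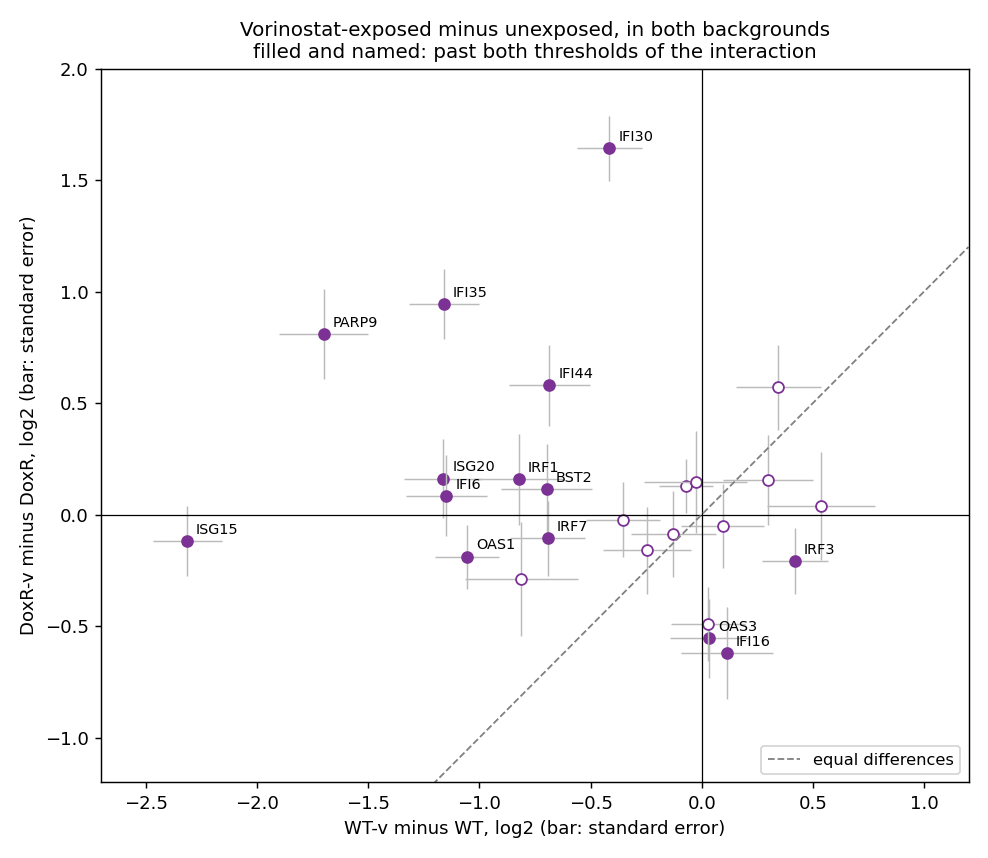
Log2 difference between vorinostat-exposed and unexposed lines for each measured member, DoxR-v minus DoxR cells (vertical) against WT-v minus WT cells (horizontal), with standard errors; named, filled points passed both thresholds of the interaction and the dashed line marks equal differences. PARP9, IFI35 and IFI44 lie above 0 among resistant lines and below 0 among parental lines, while ISG15 lies at -2.32 on the horizontal axis and -0.12 on the vertical.

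Upstream of these genes, 16 of 38 listed interferons, receptors and signalling genes were tested. Of the 21 interferon genes with a probe only IFNE, on 1 DoxR-v array, was detected. In DoxR cells 2 of the 16 were higher and 3 lower than in WT cells, in DoxR-v cells 1 and 1, and in WT-v cells 3 and 3, which is 31.2%, 12.5% and 37.5% called, beside 33.1%, 24.4% and 26.3% of all genes. The type I receptor chain IFNAR1 averaged 6.97 ± 0.14 in DoxR-v, 6.48 ± 0.18 in DoxR, 6.17 ± 0.16 in WT-v and 7.44 ± 0.10 in WT cells (SD, n = 3 each), and it was lower than in WT in DoxR (log2 -0.96, SE 0.14, adjusted p = 0.000121) and WT-v cells (log2 -1.27, adjusted p = 2.69e-05). IL10RB, a receptor chain for type III interferon, averaged 8.86 ± 0.08 in DoxR-v, 7.98 ± 0.04 in DoxR, 8.19 ± 0.28 in WT-v and 9.09 ± 0.15 in WT cells, and was likewise lower in DoxR (log2 -1.11) and WT-v cells (log2 -0.90). IFNGR2, a chain of the type II receptor, was lower in DoxR (log2 -0.67) and higher in DoxR-v than in DoxR cells (log2 0.99).

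Of 22 nucleic acid sensing genes 8 were tested, and 0 were called in DoxR or WT-v cells against WT, beside 33.1% and 26.3% of all genes. At an unadjusted p below 0.05, 3 were higher and 1 lower in DoxR, and 1 and 1 in WT-v cells. In DoxR-v cells the adaptors MYD88 (log2 1.09, SE 0.18, adjusted p = 0.000578) and MAVS (log2 0.63) were higher than in WT. These 2 of 8 are 25% called, close to the 24.4% of all genes. Of 40 further interferon-induced genes 17 were tested. In DoxR cells 3 were higher and 5 lower than in WT, in DoxR-v cells 2 and 2, and in WT-v cells 1 and 3, which is 47.1%, 23.5% and 23.5% called, beside the same shares of all genes. PARP12, an ADP-ribosyltransferase that acts against viral RNA, averaged 7.15 ± 0.25 in DoxR-v, 4.82 ± 0.35 in DoxR, 4.72 ± 0.06 in WT-v and 5.60 ± 0.47 in WT cells, and was higher in DoxR-v than in WT cells (log2 1.55, SE 0.23, adjusted p = 0.000229). TRIM5, a capsid-binding restriction factor, was higher than in WT in DoxR-v (at least 1.38-fold), DoxR (at least 1.28-fold) and WT-v cells (at least 2.27-fold).

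Markers of other cells also differed between lines. Of 7 leukocyte markers 6 had a probe, PTPRC, LYZ and CD3E were detected on no array, and the summed signal of the 6 was 344 to 419 in DoxR-v, 370.3 to 407 in DoxR, 273 to 382 in WT-v and 431 to 699 in WT cells. CD14, CD68 and AIF1 were all lower in WT-v than in WT cells (log2 -1.02, -0.92 and -0.78), CD14 and CD68 in DoxR-v cells (log2 -1.22 and -0.83) and CD14 in DoxR cells (log2 -1.32). Of the 3 tested that is 100%, 66.7% and 33.3% called, beside 26.3%, 24.4% and 33.1% of all genes. Of 6 fibroblast markers, which S-type neuroblastoma cells also express, the summed signal was 4510 to 5895 in DoxR-v, 2025 to 2258 in DoxR, 3105 to 3503 in WT-v and 3080.1 to 3369 in WT cells. The sum hides markers that went opposite ways. Of the 5 tested, 3 were higher and 1 lower than WT in WT-v, 1 and 1 in DoxR-v, and 1 and 2 in DoxR cells. That is 80%, 40% and 60% called, beside 26.3%, 24.4% and 33.1% of all genes. All 3 endothelial markers were detected on no array. Of the 4 epithelial markers only EPCAM was detected, and it was higher in DoxR-v than in WT cells (log2 0.75). The part of these cell markers in the differences of the interferon-stimulated genes was not tested.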

How the data were processed

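Transcripts of 12 SK-N-SH samples were measured on Illumina bead arrays, and the sample labels gave groups and replicate numbers. The authors deposited non-normalized probe intensity for 47323 probes, on a linear scale. A detection p-value for each intensity, which compares the probe with the array's negative controls, was deposited by the authors beside it. Any background subtraction by the scanner software is not given in the sources used here. A second table of normalized intensity was deposited, and the submitters' processing notes name lumi 2.13.3 and R 3.0.1; its scale was read from the values as linear and quantile normalized, with a compressed low end, and it served as an alternative.

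Intensities were corrected with the normal-exponential model of neqc (limma 3.58.1, R 4.3.3, offset 16), quantile normalized and log2 transformed. Probes with a detection p below 0.01 on at least 1 array were tested (21609). One linear model of group means was fitted to the 12 arrays with lmFit and eBayes, and p-values had Benjamini-Hochberg adjustment over all tested probes. The fit was tested on simulated data. The brightest tested probe stood for a gene, and 4 members had more than 1 tested probe. Members were named by rule: all 39 are named, those called between lines with the value of every array, and from each companion list up to 4 genes with the smallest adjusted p. Members and lists were chosen with earlier results of these data known. Promoter windows came from RefSeq (GRCh38.p14), where 29 members matched by symbol. With 3 arrays per group, the number of arrays limits the precision. Alternatives covered background correction, median scaling, the authors' values, the detection filter, averaging probes, fitting only the groups compared, the replicate number as a block and leaving out each array. No slide or scan batch was named in the headers, so none was fitted.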

Additional observations from a re-analysis of the deposited data

Results flagged for a closer look

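The vorinostat difference among resistant lines (DoxR-v minus DoxR) and that among parental lines (WT-v minus WT) differed by the interaction test for 14 of the 25 measured members, beside 20.2% of all genes tested in the positive and 21.9% in the negative direction. The log2 interaction was positive for PARP9 (2.51), ISG15 (2.20), IFI35 (2.10), IFI30 (2.06), ISG20 (1.32), IFI44 (1.26), IFI6 (1.23), IRF1 (0.98), OAS1 (0.87), BST2 (0.81) and IRF7 (0.59). It was negative for IFI16 (-0.73), IRF3 (-0.63) and OAS3 (-0.59). Leaving out a single array ended the calls of BST2, with DoxR-v replicate 1 (0.56) or WT replicate 1 (0.63) left out; of IFI16, with DoxR replicate 1 or 2, DoxR-v replicate 2 or 3, WT replicate 1 or WT-v replicate 2 left out (nearest to 0 at -0.56); of IRF3, with DoxR replicate 3, DoxR-v replicate 1, WT replicate 1 or WT-v replicate 1 or 3 (-0.51); of IRF7, with DoxR replicate 3, DoxR-v replicate 1 or 2, WT replicate 1 or WT-v replicate 1 or 3 (0.39); and of OAS3, with any DoxR replicate, DoxR-v replicate 2, WT replicate 1 or 2 or WT-v replicate 1 or 3 (-0.38). The other 9 calls held without any 1 array. Without background correction 6 calls were kept, those of PARP9, ISG15, IFI35, IFI30, ISG20 and IFI6. On the authors' normalized values 2 were kept, those of ISG15 and IFI6. Members lower in WT-v than in WT cells lean to a positive interaction in advance, so the count is not a separate result. With arrays scaled to their median, the calls of OAS1 (0.49) and IRF7 (0.43) were lost, and that of OAS1 was also lost with its probes averaged (0.49); neither other tested OAS1 probe was called (0.37, adjusted p = 0.206, and 0.24, adjusted p = 0.407, limma). Without the detection filter IFI16 (adjusted p = 0.124), OAS3 (adjusted p = 0.141) and IRF7 (adjusted p = 0.109) were lost. ISG15, ISG20, IFI30, IFI44 and PARP9 were detected on no DoxR array, so for them the difference among resistant lines rests in whole or in part on levels at or near the detection floor. IFI30 and IFI16 were detected on no WT-v or WT array, so their difference among parental lines lies between undetected levels.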

How the results depend on the processing

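Scaling to the median gave 11, 13, 10, 5, 12 and 13 member calls (in the order DoxR, DoxR-v and WT-v cells against WT, DoxR-v against DoxR, DoxR-v against WT-v, and interaction), against 10, 11, 11, 4, 12 and 14. It brought the median difference of all probes to as much as 0.26. Among all probes past both thresholds, it raised the share that were higher to 84.8% in WT-v and 87.2% in DoxR-v cells against WT, from 53.3% and 51.0%. It made 11 further member calls, among them EIF2AK2 (0.74), IRF1 (0.60), IRF3 (0.82) and IRF9 (1.01) in DoxR-v cells against WT, and ended 9, among them XAF1 in DoxR-v (-0.30) and WT-v cells (-0.36). Without background correction the counts were 6, 6, 4, 1, 4 and 6, and on the authors' normalized values, whose low end is compressed, 2, 2, 2, 0, 1 and 2. The share of all genes called was not counted at the alternative settings. Without background correction 27 of the 62 calls were kept, and on the authors' values 9. At both settings ISG15 was lower in all 3 derived lines and IFI16 higher in both resistant lines, against WT, and the calls of IFIT1 and IFIT5 were lost. On the authors' values every call of ISG20, OAS1, PARP9 and IFI30 was lost as well. Of the 4 members lower in all 3 derived lines, only ISG15 then kept its calls. Without background correction OAS1 kept all 3 calls against WT, while ISG20 lost that in WT-v (-0.57) and PARP9 that in DoxR-v cells (-0.45). Averaging the probes of a gene ended 5 calls and dropping the detection filter 3. Leaving out 1 array gave 10 to 12, 8 to 12, 9 to 11, 4 to 7, 11 to 13 and 10 to 14 calls; the count of DoxR-v vs DoxR reached 7 without DoxR-v replicate 1. Of 48 calls between lines, 37 held without any 1 array. No value of a called member changed sign under any alternative run. With the replicate block the counts were 10, 11, 11, 4, 12 and 14; same-numbered arrays did not deviate together (r -0.33 to 0.17), so the numbers do not pair the samples. The response element core shortened by its last base was found for 69% of members with a window, against 65.5%. Low signal is a limit: 13 of 38 members with a probe were never detected, and folds against undetected groups are lower bounds. Folds against groups detected on only some arrays rest partly on undetected levels. A bound is not firm where the brighter group was detected on only some arrays. This holds for IRF7, IFI44, BST2, IFIT2 and the PARP9 differences of DoxR-v from DoxR and WT-v cells.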
